A study of Mus musculus with 10 samples.

Results

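The genes described here are the segments of the T-cell receptor beta, gamma and delta loci in the mouse thymus. They were taken by name: every gene in the count table whose symbol begins Trbv, Trbd, Trbj, Trbc, Trdv, Trdd, Trdj, Trdc, Trgv, Trgj or Tcrg-. This gave 54 of 35375 features. The beta locus on chromosome 6 had 36 of them (20 V, 14 J and 2 constant region genes), the gamma locus on chromosome 13 had 11 (7 V and 4 constant region genes), and the delta segments on chromosome 14 were 7 (5 V and 2 J). The reference names hold 79 such segments, and the other 25, among them the D segments, the gamma J segments and the delta constant region gene Trdc, are not analysed here. Of the 54 segments, 53 passed the filter on low counts, and Trbv10, a pseudogene with 31 counts summed over the libraries, did not.

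RNA came from whole thymus of C57BL/6J mice, 3 days after birth, in which Usp7, the gene of a deubiquitinating enzyme, was homozygously knocked out (n = 3 libraries), heterozygously knocked out (n = 3) or wild type (n = 4). The label of each library carries a number of its own, from 44 to 63, but nothing states that they are separate animals, so the p-values measure the spread between these libraries. The knock-out was in the hematopoietic system, and the Cre driver and the deleted exons are not given in the sources used here. Per the series, Cre was induced in 2 wild types and not in the other 2, and which is which is not stated. The column names of wild-type libraries 3 and 4 hold a further word, het, that their titles lack. What it refers to is not stated, and both were kept as wild type. Total RNA was depleted of ribosomal RNA, made into stranded libraries, sequenced and counted per gene, giving 92.3 to 122 M counts per homozygous KO library, 90.5 to 97.4 M per heterozygous KO library and 39.8 to 86.4 M per wild-type library. The beta, gamma and delta segments together took 0.228% to 0.291% of the counts.

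A T-cell receptor is a pair of chains, alpha with beta or gamma with delta, and the variable part of each chain is encoded by V, J and, for beta and delta, D segments that the RAG recombinase joins in the developing thymocyte. The joined exon is then spliced to a constant region gene. Beta rearranges in double-negative thymocytes, before alpha does so in double-positive thymocytes, and gamma-delta cells of the fetal and newborn thymus arise in waves that each use particular gamma and delta V segments. In whole thymus, fewer cells that carry a rearrangement and less RNA per cell cannot be told apart.

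The sequences of the segments that the results turn on are given first, from the GENCODE M21 (GRCm38) transcripts. The 14 beta J segments lie in 2 clusters, each upstream of its own constant region gene, and Trbj1-1 and Trbj2-1 are the first J segments of their clusters in annotation order. They are shown whole with the next segment of each cluster, 5′ to 3′, with the bases that encode the phenylalanine-glycine-any-glycine motif of J segments in capitals.
Trbj1-1: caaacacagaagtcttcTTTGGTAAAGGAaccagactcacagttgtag
Trbj1-2: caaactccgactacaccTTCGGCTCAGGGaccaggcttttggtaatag
Trbj2-1: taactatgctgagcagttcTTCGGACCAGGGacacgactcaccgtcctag
Trbj2-2: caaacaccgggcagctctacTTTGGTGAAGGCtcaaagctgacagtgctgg
Of the 14 beta J segments, 11 hold that motif on the sense strand, and Trbj1-6, Trbj1-7 and the pseudogene Trbj2-6 do not.

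The last 40 bases of a V segment hold the codons of the tyrosine-any-cysteine triplet after which the junction with D or J begins. The beta V segments with the largest rise and the largest fall, the 3 gamma V segments that are near-copies of each other, and the delta V segment with the largest rise are shown next, with the triplet (TATNNNTGT, TATNNNTGC, TACNNNTGT or TACNNNTGC on the sense strand) in capitals.
Trbv26: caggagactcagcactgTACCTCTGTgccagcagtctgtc
Trbv30: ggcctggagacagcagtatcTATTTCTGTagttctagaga
Tcrg-V1: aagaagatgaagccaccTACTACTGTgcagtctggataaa
Tcrg-V3: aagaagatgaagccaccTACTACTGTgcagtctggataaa
Trgv2: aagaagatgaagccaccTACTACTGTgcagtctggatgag
Trdv4: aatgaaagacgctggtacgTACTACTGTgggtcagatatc
The triplet was found in 29 of the 32 V segments. Tcrg-V1 and Tcrg-V3 are identical over these bases and 95.6% identical over the aligned length, so reads from one could be placed on the other.

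Usp7 was first checked in every library. It stood at 303, 422 and 408 CPM (counts scaled to a common library size by TMM) in the homozygous KO libraries 1 to 3, at 472, 516 and 516 CPM in heterozygous KO, and at 676, 670, 594 and 589 CPM in wild type, so the 3 groups did not overlap. Its level in homozygous KO was 0.597 of that in wild type (adjusted p by edgeR = 0.000525), and in heterozygous KO 0.792 (adjusted p by edgeR = 0.608, exact two-sided permutation p = 0.0286, the smallest that 3 against 4 libraries allow). Among the wild types, the lower Usp7 levels, 594 and 589 CPM, were those of libraries 3 and 4, whose column names hold the word het. Their titles hold 1 wt word, and those of wild-type libraries 1 and 2 hold 2. The part of what het marks in these levels was not tested. The thymocyte genes Rag1, Cd8a and Cd4 were abundant in every library: Rag1 stood at 3328 to 6622 CPM, Cd8a at 1135 to 1577 CPM and Cd4 at 564 to 766 CPM. Xist was high in homozygous KO library 3 and in wild-type libraries 2, 3 and 4, and the male gene Ddx3y in the others, so that no heterozygous KO library was female. Values below are given in the order of libraries 1, 2, 3 and, for wild type, 4.

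Comparing homozygous KO with wild type, 22 of the 53 tested segments were called, 17 up and 5 down (edgeR, Benjamini-Hochberg adjusted p under 0.05), or 41.5% of the segments. Of all 19511 features tested, 25.8% were called, 12.5% up and 13.2% down. The median log2 fold change of the 53 segments was 0.29, against -0.01 over all features. All 3 homozygous KO libraries lay above all 4 wild types for 15 segments and below them for 5, beside 16.3% and 16.4% of all features. The part of Cre induction in these differences was not tested, as it is not stated in which 2 wild types Cre was induced. In heterozygous KO against wild type, edgeR called 0 of 53, beside 0.0154% of all features, and DESeq2 also called 0. An unadjusted p under 0.05 was found for 8, where 7.28% of all features had one. The heterozygous KO libraries lay above all wild types for 0 segments and below them for 6, beside 4.41% and 4.27% of all features. Homozygous KO against heterozygous KO called 24 segments, 20 up and 4 down, beside 17.1% of all features (7.63% up and 9.5% down). These 3 comparisons share libraries, so their lists are not independent of each other. Library numbers split into 44 to 51 (1 library of each KO group and 3 wild types) and 56 to 63 (2 of each KO group and 1 wild type). Within both ranges 21 of the 22 called segments kept the sign of the change, the exception being Tcrg-C3. Where all homozygous KO libraries lay beyond all wild types, that sign was fixed in advance. Among the called segments it could have differed only for Trbv17, Trgv2 and Tcrg-C3, whose groups overlapped.

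**Figure D1:**
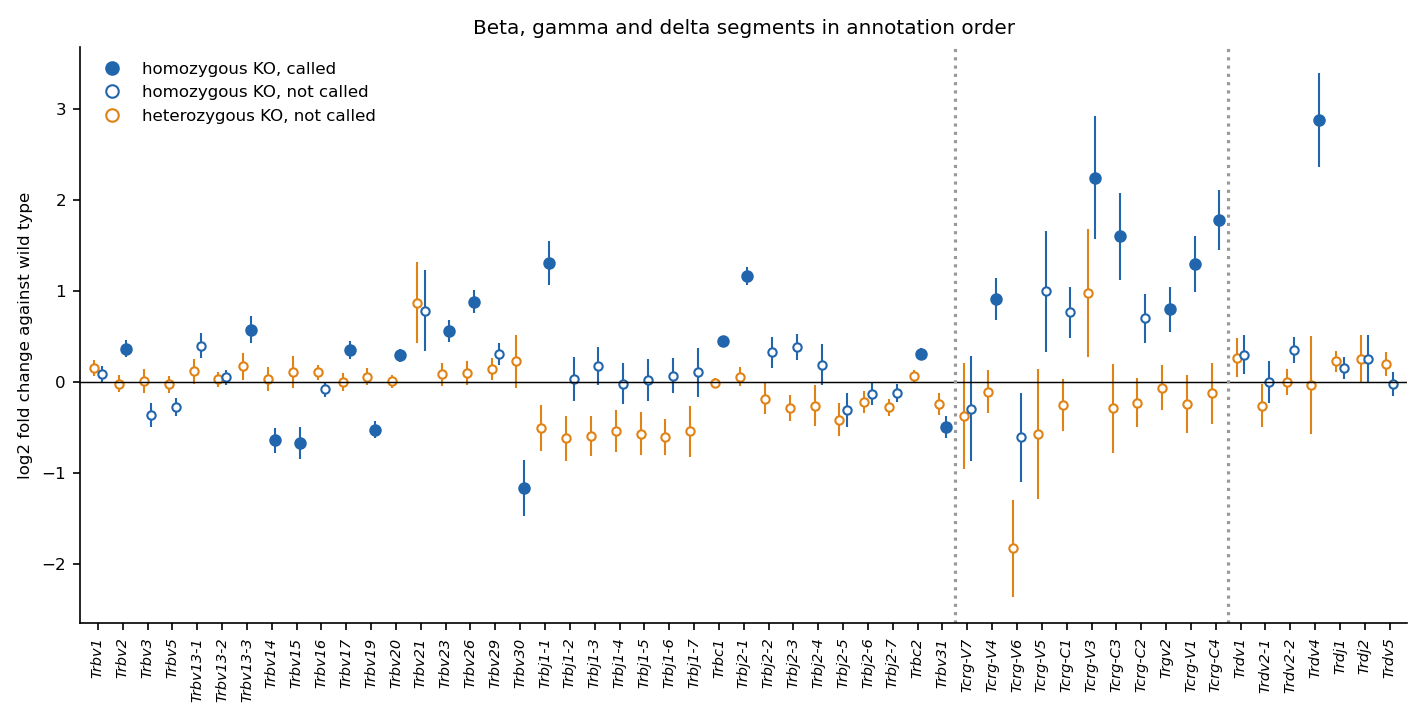
Log2 fold change against wild type, with its standard error, of the 53 tested segments in annotation order (beta, gamma and delta separated by dotted lines), for homozygous KO (blue, filled where called) and heterozygous KO (orange). The 5 called falls are all beta V segments, the gamma segments called in homozygous KO all rose, and no heterozygous KO value was called.

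Beta constant region RNA was higher in homozygous KO. Trbc1, the constant region gene of the first D-J cluster, stood at 715, 728 and 742 CPM in homozygous KO, at 495, 534 and 558 CPM in heterozygous KO, and at 512, 539, 545 and 543 CPM in wild type. Every homozygous KO library was above every other library, while heterozygous KO and wild type overlapped. The log2 fold change was 0.45 ± 0.05 (SE, adjusted p by edgeR = 0.000141) against wild type and -0.02 ± 0.05 (adjusted p by edgeR = 0.968) for heterozygous KO against wild type.

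Trbc2, its counterpart in the second cluster, rose as well. It stood at 1247, 1440 and 1331 CPM in homozygous KO, at 1044, 1156 and 1202 CPM in heterozygous KO, and at 1032, 1095, 1075 and 1141 CPM in wild type. Here too the homozygous KO libraries were above all others. The log2 fold change against wild type was 0.30 ± 0.07 (SE, adjusted p by edgeR = 0.00795), and it was not called when the controls were only the 2 wild types with 1 wt word in their titles (adjusted p by edgeR = 0.08, range over the alternatives 0.000239 to 0.08). Within the libraries numbered 44 to 51 the log2 difference was 0.43 for Trbc1 and 0.22 for Trbc2, and within those numbered 56 to 63 it was 0.44 and 0.28. The 2 genes are 95.3% identical where they align, and 61.1% of the 50-base windows of Trbc1 occur in Trbc2, so their separate values depend on how shared reads were handled, which is not given in the sources used here.

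The V segments as a whole showed no such difference. Summed over the 20 beta V segments the level was 489, 539 and 517 CPM in homozygous KO and 503, 503, 513 and 523 CPM in wild type, with overlap and a log2 difference of 0.01. The constant region genes took 75.8%, 77.3% and 76.6% of the beta counts in homozygous KO, 73.1% to 73.6% in heterozygous KO and 71.9% to 73.6% in wild type, so that homozygous KO was above in each library. The exact 95% binomial interval was 75.7% to 76.0% in homozygous KO library 1 and 71.7% to 72.1% in wild-type library 3, and all such intervals here cover counting error only.

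**Figure D2:**
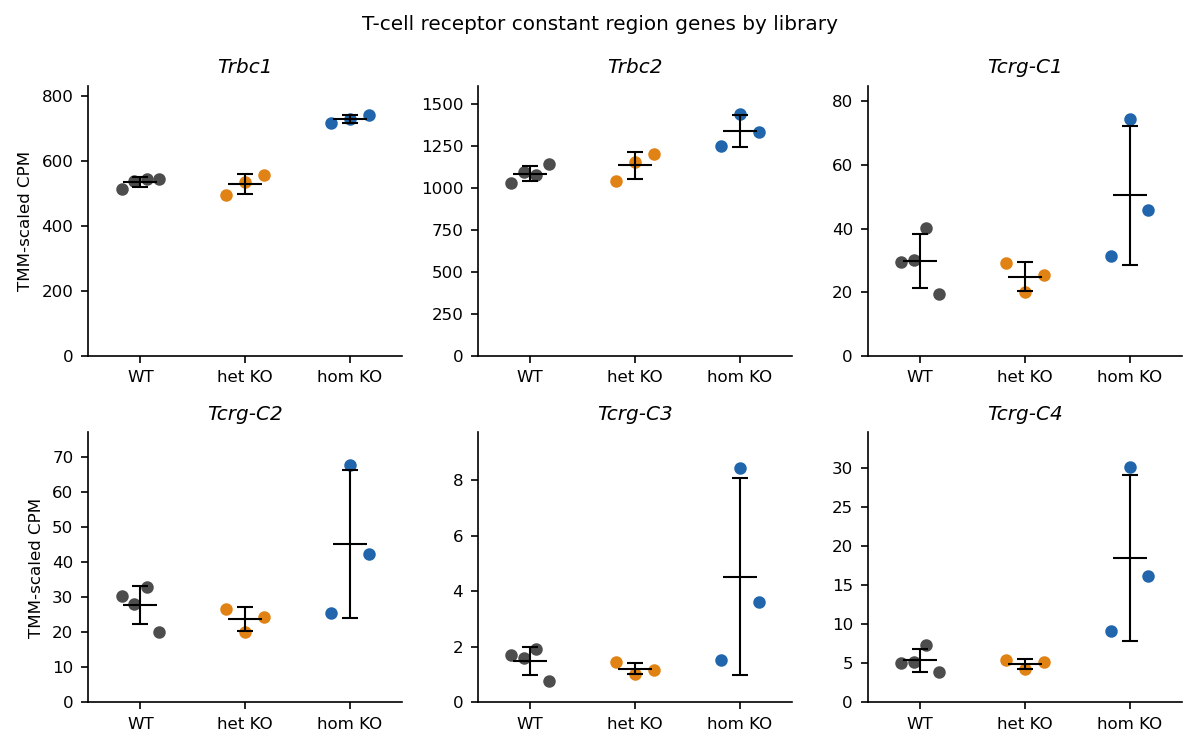
TMM-scaled CPM of the 6 constant region genes in each library (points), with the mean and SD of each group (bars, n = 4, 3 and 3). Trbc1, Trbc2 and Tcrg-C4 of homozygous KO lie above every other library, and homozygous KO library 2 is the highest for the 4 gamma genes.

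Single beta V segments moved in both directions: of 19 tested, 6 rose and 5 fell in homozygous KO, and 8 were not called (57.9% called, beside 12.5% up and 13.2% down of all features). Trbv26 had the largest rise, with 31.0, 41.0 and 31.8 CPM in homozygous KO, 17.7, 19.8 and 22.9 CPM in heterozygous KO and 20.9, 18.7, 16.1 and 19.6 CPM in wild type. All homozygous KO libraries were above all others. Its log2 fold change was 0.88 ± 0.13 (SE, adjusted p by edgeR = 0.000532), and its share of beta V counts went from 3.69% ± 0.423 (SD, n = 4) to 6.70% ± 0.797 (SD, n = 3). Within the 2 number ranges the log2 difference was 0.75 and 0.88.

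Trbv30 had the largest fall. It stood at 0.946, 2.64 and 1.27 CPM in homozygous KO, at 3.93, 3.95 and 4.87 CPM in heterozygous KO and at 3.49, 3.32, 3.27 and 4.44 CPM in wild type. The homozygous KO libraries were the lowest of all, with a wide spread among them. The log2 fold change was -1.17 ± 0.31 (SE, adjusted p by edgeR = 0.0168), and -1.02 without homozygous KO library 3 (adjusted p by edgeR = 0.0621, range over the alternatives up to 0.0795). The call was also lost with the wild types of 1 or of 2 wt words as the only controls. Within the 2 number ranges the log2 difference was -1.82 and -1.27. Its share of beta V counts was 0.193%, 0.49% and 0.246% in homozygous KO and 0.638% to 0.849% in wild type, with exact 95% binomial intervals of 0.433% to 0.552% in the highest homozygous KO library and 0.567% to 0.716% in the lowest wild type.

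The other segments that fell were Trbv15, Trbv14, Trbv19 and Trbv31, by 0.67, 0.64, 0.53 and 0.50 on the log2 scale (SE 0.18, 0.13, 0.09 and 0.12, adjusted p by edgeR = 0.0166, 0.00497, 0.00185 and 0.0108). Trbv15 went from 38.6 CPM in wild type, with libraries from 37.0 to 41.8 CPM, to 27.5, 16.1 and 29.3 CPM in homozygous KO, and Trbv19 stood at 30.1, 27.1 and 35.3 CPM in homozygous KO beside 40.7 to 47.3 CPM in wild type. For each of these segments the homozygous KO libraries were below every wild type. Without homozygous KO library 2 the log2 fold change of Trbv15 was -0.44 and still called. Its call was lost with the wild types of 1 or of 2 wt words as the only controls (adjusted p by edgeR up to 0.0798). Trbv31 is the only beta V segment that lies beyond Trbc2 and in the opposite orientation, so that it is joined by inversion. It was also the only beta V segment whose heterozygous KO libraries, at 24.8, 22.4 and 23.0 CPM, were all below wild type, at 24.9 to 33.0 CPM (adjusted p by edgeR = 0.705).

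The rises beside Trbv26 were Trbv13-3, Trbv23, Trbv2, Trbv17 and Trbv20, with log2 fold changes of 0.57, 0.56, 0.36, 0.35 and 0.29 (adjusted p by edgeR = 0.0146, 0.00627, 0.0156, 0.0219 and 0.0113). Trbv2 and Trbv17 were named after their values were seen, and their calls were lost without homozygous KO library 2 (adjusted p by edgeR = 0.0701 and 0.0927, up to 0.121 and 0.14 over the alternatives). That of Trbv17 was also lost without homozygous KO library 1 or wild-type library 1 or 2 (adjusted p by edgeR = 0.0718, 0.0549 and 0.0507). Trbv13-3 stood at 21.1, 27.2 and 35.7 CPM in homozygous KO and at 17.7 to 20.4 CPM in wild type, but was not called without homozygous KO library 3 (log2 fold change 0.36, adjusted p by edgeR = 0.052, range over the alternatives 0.00112 to 0.122). Trbv17 at 29.1, 30.0 and 23.2 CPM overlapped the wild types, the highest of which had 23.7 CPM. Trbv13-1 and Trbv13-2, of the same family as Trbv13-3, were not called, with 0.40 and 0.05 (adjusted p by edgeR = 0.0536 and 0.693). Trbv13-1, at 33.5, 50.2 and 39.5 CPM in homozygous KO and 27.3 to 34.3 CPM in wild type, was called without homozygous KO library 1 or heterozygous KO library 1 (adjusted p by edgeR = 0.0144 and 0.0428). Trbv13-2, the most abundant beta V segment, had 62.8 to 77.6 CPM in homozygous KO and 66.1 to 74.1 CPM in wild type, and Trbv16 was not called, with -0.08 (adjusted p by edgeR = 0.519).

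Rises and falls were interspersed along the locus: in annotation order the called segments read Trbv2 (up), Trbv13-3 (up), Trbv14 and Trbv15 (down), Trbv17 (up), Trbv19 (down), Trbv20, Trbv23 and Trbv26 (up), Trbv30 and Trbv31 (down). The share of beta V counts that would have to be moved between segments to make 2 libraries alike was 3.08% to 5.11% between wild types and 2.04% to 5.24% between heterozygous KO and wild type. Between homozygous KO and wild type it was 9.57% to 16.3%, and among the homozygous KO libraries themselves it was 8.43% to 8.80%, so these also differed from each other more than wild types did. These distances are a description with no test.

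**Figure D3:**
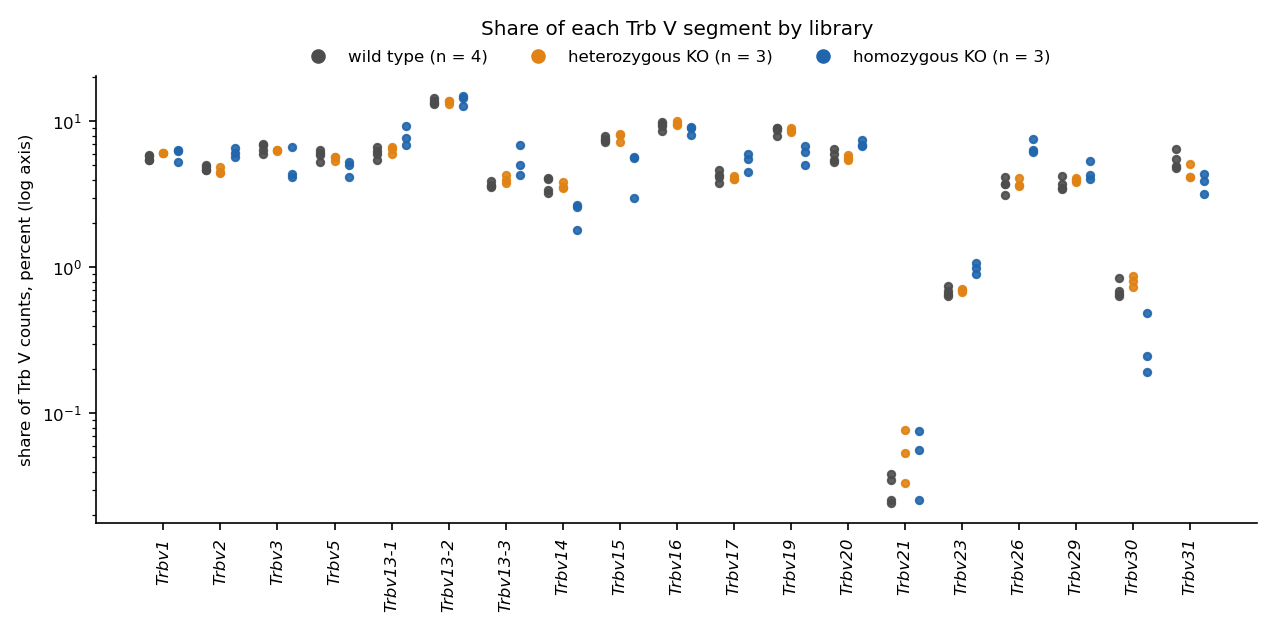
Share of the beta V counts taken by each of 19 V segments, in percent on a log axis, per library and in annotation order. Homozygous KO libraries (blue) sit above wild type for Trbv26 and below it for Trbv14, Trbv15, Trbv19, Trbv30 and Trbv31, and heterozygous KO (orange) overlaps wild type (gray) for each of these segments. For the sparse Trbv21, heterozygous KO reached 0.0773% beside at most 0.0383% in wild type.

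Among the 14 beta J segments, 2 were called up in homozygous KO and 0 down. That is 14.3%, near the 12.5% of all features called up and below the 25.8% called in either direction, so the count is not a result about the J segments as a group. The called segments were Trbj1-1 and Trbj2-1, each the first J segment of its cluster. Trbj2-1 stood at 15.4, 15.0 and 16.8 CPM in homozygous KO, at 6.85, 7.47 and 7.65 CPM in heterozygous KO and at 6.16, 7.51, 7.40 and 7.07 CPM in wild type. The homozygous KO libraries were above all others, and the log2 fold change of 1.16 ± 0.10 (SE, adjusted p by edgeR = 1.63e-05) was called under every alternative tried. Trbj1-1 stood at 10.7, 6.19 and 6.40 CPM in homozygous KO, at 2.42, 1.95 and 2.28 CPM in heterozygous KO and at 3.31, 3.39, 3.85 and 2.04 CPM in wild type. Its homozygous KO libraries were again above all others, with library 1 the highest, and the log2 fold change was 1.31 ± 0.24 (SE, adjusted p by edgeR = 0.00273). Within the 2 number ranges the log2 differences were 1.61 and 1.62 for Trbj1-1, and 1.14 and 1.16 for Trbj2-1.

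The next segments of the same clusters, whose sequences are given beside theirs, were not called: Trbj1-2 had a log2 fold change of 0.03 ± 0.24 and Trbj2-2 one of 0.33 ± 0.17 (SE, adjusted p by edgeR = 0.946 and 0.186). As a share of beta J counts, Trbj1-1 was 6.64% ± 1.16 (SD, n = 3) in homozygous KO and 3.14% ± 0.409 (SD, n = 4) in wild type, and Trbj2-1 was 13.9% ± 2.24 and 7.22% ± 1.24. In heterozygous KO these shares were 2.94% ± 0.113 and 9.79% ± 1.12 (SD, n = 3), overlapping wild type. The segment Trbj2-7, at 12.6, 13.3 and 13.0 CPM in homozygous KO and 13.0 to 16.1 CPM in wild type, was not called (log2 fold change -0.12 ± 0.09, adjusted p by edgeR = 0.375), nor were Trbj1-3, Trbj1-4, Trbj1-5 and Trbj1-6, with values from -0.02 to 0.17.

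In heterozygous KO no beta J segment was called. Of the 14, 13 had a negative log2 fold change against wild type, the exception being Trbj2-1, and 7 had an unadjusted p under 0.05, where 7.28% of all features did, but the lowest adjusted p was 0.608. Summed over the J segments the level was 79.9, 69.3 and 76.5 CPM in heterozygous KO and 97.5, 99.1, 120 and 80.2 CPM in wild type, so that the heterozygous KO libraries were the lowest by a narrow margin. The log2 difference was -0.39 over all libraries, -0.40 within numbers 44 to 51 and -0.14 within numbers 56 to 63. J levels differed between the number ranges in the other groups too: homozygous KO library 1 had 136 CPM beside 96.0 and 114 CPM in libraries 2 and 3, and wild-type library 4 was below the other wild types. In the fit with a term for the 2 ranges of library numbers, 0 segments were called in heterozygous KO. The part of the library number in the summed heterozygous KO value was not tested. Against heterozygous KO, homozygous KO was higher for 5 J segments, Trbj1-1, Trbj2-1, Trbj1-3, Trbj1-6 and Trbj2-3, with log2 fold changes of 1.81, 1.10, 0.77, 0.68 and 0.67 (adjusted p by edgeR from 5.57e-05 to 0.0461). The calls of Trbj1-3 and Trbj1-6 were lost without homozygous KO library 1 (adjusted p by edgeR = 0.145 and 0.166, the highest over the alternatives), without homozygous KO library 3, heterozygous KO library 2 or 3, or wild-type library 1 or 2, and that of Trbj1-6 also without heterozygous KO library 1 (adjusted p by edgeR from 0.0567 to 0.155). Both calls were lost with library totals alone, Xist as a covariate or only the wild types of 1 wt word as well.

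**Figure D4:**
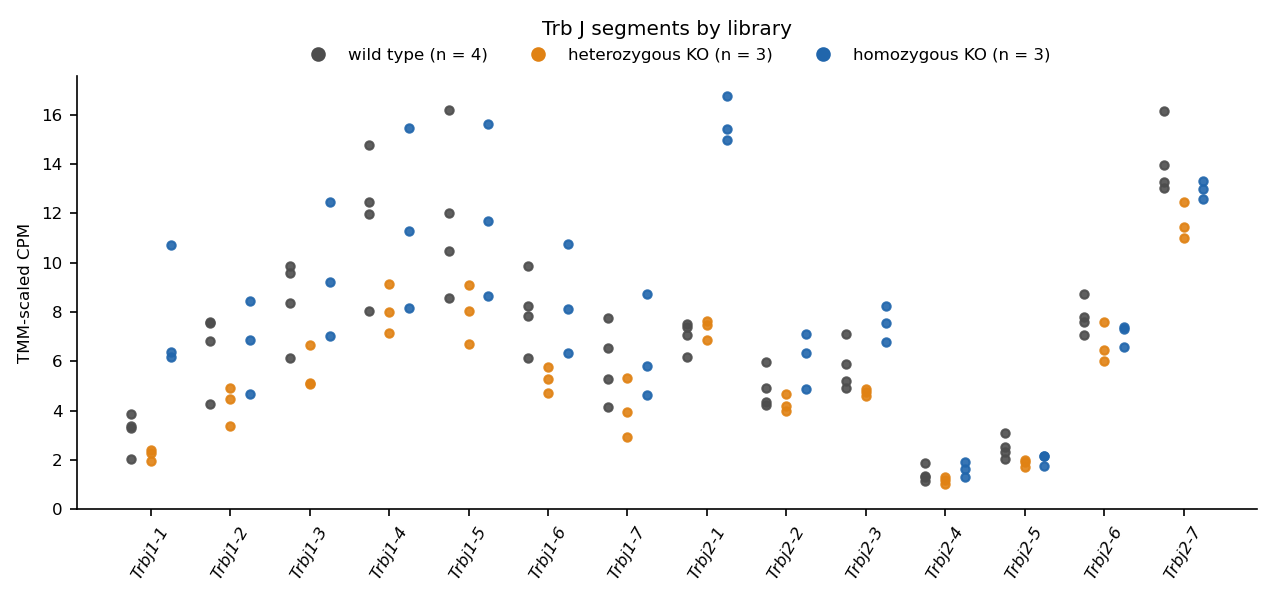
TMM-scaled CPM of the 14 beta J segments per library in annotation order (wild type gray, heterozygous KO orange, homozygous KO blue). Trbj1-1 and Trbj2-1 are the segments whose homozygous KO libraries clear all others by a wide gap.

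Of the 11 gamma segments, 6 were called up in homozygous KO and 0 down against wild type, and 7 were called up against heterozygous KO, beside 12.5% and 7.63% of all features called up. The homozygous KO libraries were widely spread. Of the 7 calls against heterozygous KO, those of Tcrg-C4 and Tcrg-V1 held under every alternative. Those of Tcrg-C1, Tcrg-C2 and Trgv2 were lost under 11, 14 and 12 of 19 alternatives (adjusted p by edgeR up to 0.153, 0.185 and 0.167). Each of these was lost without homozygous KO library 2 or 3, any of the heterozygous KO libraries, or wild-type library 1 or 2, and Tcrg-C2 and Trgv2 also without wild-type library 3. Without homozygous KO library 2 their log2 fold changes were 0.63, 0.52 and 0.54, down from 1.02, 0.93 and 0.86. Tcrg-C3 was lost without homozygous KO library 2 or any of the heterozygous KO libraries, and Tcrg-V4 without homozygous KO library 2 or heterozygous KO library 2 (adjusted p by edgeR up to 0.125 and 0.0666). Summed over the locus, homozygous KO had 90.8, 226 and 137 CPM, heterozygous KO 81.6, 59.4 and 72.8 CPM, and wild type 84.7, 82.8, 104 and 57.3 CPM. Homozygous KO library 1 lay within the wild-type range, and library 2 was far above it. The log2 difference of the sums was 0.81, but 0.01 within numbers 44 to 51 and 1.62 within numbers 56 to 63, where a single wild type with the lowest value of its group serves as control.

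Tcrg-C4 is the constant region gene downstream of Tcrg-V1, at the end of the locus. It stood at 9.21, 30.1 and 16.2 CPM in homozygous KO, at 5.42, 4.26 and 5.16 CPM in heterozygous KO and at 5.03, 5.22, 7.36 and 3.92 CPM in wild type. The homozygous KO libraries were above all others, the log2 fold change was 1.78 ± 0.33 (SE, adjusted p by edgeR = 0.00263), and the call held under every alternative. The log2 difference was 0.67 within numbers 44 to 51 and 2.49 within numbers 56 to 63. Its share of the gamma constant region counts, which does not depend on the total, was 13.6%, 16.7% and 15.0% in homozygous KO (exact 95% binomial interval in library 1, 12.9% to 14.4%) and 7.58% to 8.95% in wild type (interval in library 3, 8.31% to 9.63%). None of its 50-base windows occurs in another segment described here.

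Tcrg-C3 was called with a log2 fold change of 1.60 ± 0.48 (SE, adjusted p by edgeR = 0.0305), at 1.52, 8.44 and 3.61 CPM in homozygous KO and 0.774 to 1.91 CPM in wild type, with overlap. Without homozygous KO library 2 it was 0.78 and no longer called (adjusted p by edgeR = 0.198, the highest over the alternatives), and the range values were split, with a log2 difference of -0.19 within numbers 44 to 51 and 2.82 within numbers 56 to 63. It was also lost without wild-type library 1, 2 or 4 (adjusted p by edgeR = 0.059, 0.0628 and 0.0646). In all, the call was lost under 9 of 19 alternatives. These included the replicate number as a block, the term for library-number ranges, Xist as a covariate and both wild-type sets by wt words. Tcrg-C1, at 31.4, 74.3 and 45.9 CPM in homozygous KO beside a wild-type mean of 29.7 ± 8.45 CPM (SD, n = 4), and Tcrg-C2, at 25.5, 67.7 and 42.5 CPM beside 20.1 to 32.9 CPM in wild type, were not called against wild type (log2 fold change 0.76 and 0.70, adjusted p by edgeR = 0.0682 and 0.0795). Both were called without homozygous KO library 1 (adjusted p by edgeR = 0.0159 and 0.00625, up to 0.325 and 0.395 over the alternatives), and Tcrg-C1 also without wild-type library 3 (adjusted p by edgeR = 0.041). Tcrg-C1, Tcrg-C2 and Tcrg-C3 share 34.2%, 25.4% and 42.6% of their 50-base windows with other segments, so their separate levels are uncertain.

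Of the 7 gamma V segments, 4 were called up. Tcrg-V1 stood at 1.94, 5.15 and 2.13 CPM in homozygous KO and at 1.33, 1.20, 1.36 and 1.12 CPM in wild type, with no overlap (log2 fold change 1.29 ± 0.31, adjusted p by edgeR = 0.0108). Without homozygous KO library 2 the value was 0.70 and still called (adjusted p by edgeR = 0.0328), and the call was lost with the wild types of 1 or of 2 wt words as the only controls (adjusted p by edgeR = 0.0809 and 0.0692). Tcrg-V4, at 9.42, 17.8 and 11.1 CPM beside 5.94, 7.12, 8.78 and 5.39 CPM, did not overlap either (0.91 ± 0.23, adjusted p by edgeR = 0.0142), but was lost without homozygous KO library 2 (0.60, adjusted p by edgeR = 0.0624, range over the alternatives 0.00072 to 0.11). The call of Tcrg-V4 was also lost with the wild types of 1 wt word as the only controls. Trgv2, at 10.3, 21.3 and 13.9 CPM, overlapped the wild types at 6.00 to 10.4 CPM, and its log2 fold change of 0.80 ± 0.24 (adjusted p by edgeR = 0.0339) was 0.48 without homozygous KO library 2 (adjusted p by edgeR = 0.16). It was also lost without homozygous KO library 3 or wild-type library 1, 2 or 4 (adjusted p by edgeR = 0.0513 to 0.0728). In all, the call of Trgv2 was lost under 10 of 19 alternatives. These included library totals alone, the replicate number as a block, Xist as a covariate and both wild-type sets by wt words. The log2 differences of Tcrg-V1, Tcrg-V4 and Trgv2 were 0.58, 0.39 and 0.10 within numbers 44 to 51, and 1.55, 1.38 and 1.52 within numbers 56 to 63.

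Tcrg-V3 was sparse: 0.234, 0.773 and 0.222 CPM in homozygous KO against 0, 0.0963, 0.135 and 0.0846 CPM in wild type, where no count in wild-type library 1 allows up to 0.0753 CPM. Its log2 fold change of 2.24 ± 0.68 (adjusted p by edgeR = 0.0311) was 1.42 without homozygous KO library 2 (adjusted p by edgeR = 0.18). The call was lost without wild-type library 2 or 4 too (adjusted p by edgeR = 0.0627 and 0.0609), and under 8 of 19 alternatives in all. Among these were the replicate number as a block, the term for library-number ranges, Xist as a covariate and both wild-type sets by wt words. As a share of the gamma V counts, Tcrg-V4 was 38.3% ± 3.90 (SD, n = 4) in wild type and 39.6% ± 0.848 (SD, n = 3) in homozygous KO, and Trgv2 was 49.0% ± 3.87 and 46.8% ± 2.43, so these 2 segments kept overlapping shares while their levels rose.

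Tcrg-V5 and Tcrg-V6 are the gamma V segments of the invariant receptors of the first fetal waves, which home to the epidermis and to mucosal and dermal sites and are paired with the delta segment Trdv4. Neither was called in homozygous KO: Tcrg-V5 stood at 0.868, 0.215 and 0.288 CPM beside 0.0481 to 0.518 CPM in wild type (adjusted p by edgeR = 0.305), and Tcrg-V6 at 0.356, 0.186 and 0.166 CPM beside 0.221, 0.265, 0.698 and 0.230 CPM (adjusted p by edgeR = 0.399). In heterozygous KO, Tcrg-V6 stood at 0.110, 0.0733 and 0.120 CPM, below every wild type, with a log2 fold change of -1.83 ± 0.53 that was not called (unadjusted p = 0.00547, adjusted p by edgeR = 0.594). Tcrg-V7, the segment of intestinal gamma-delta cells, varied from 0.169 to 0.737 CPM in wild type and was not called in homozygous KO (log2 fold change -0.30, adjusted p by edgeR = 0.744).

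**Figure D5:**
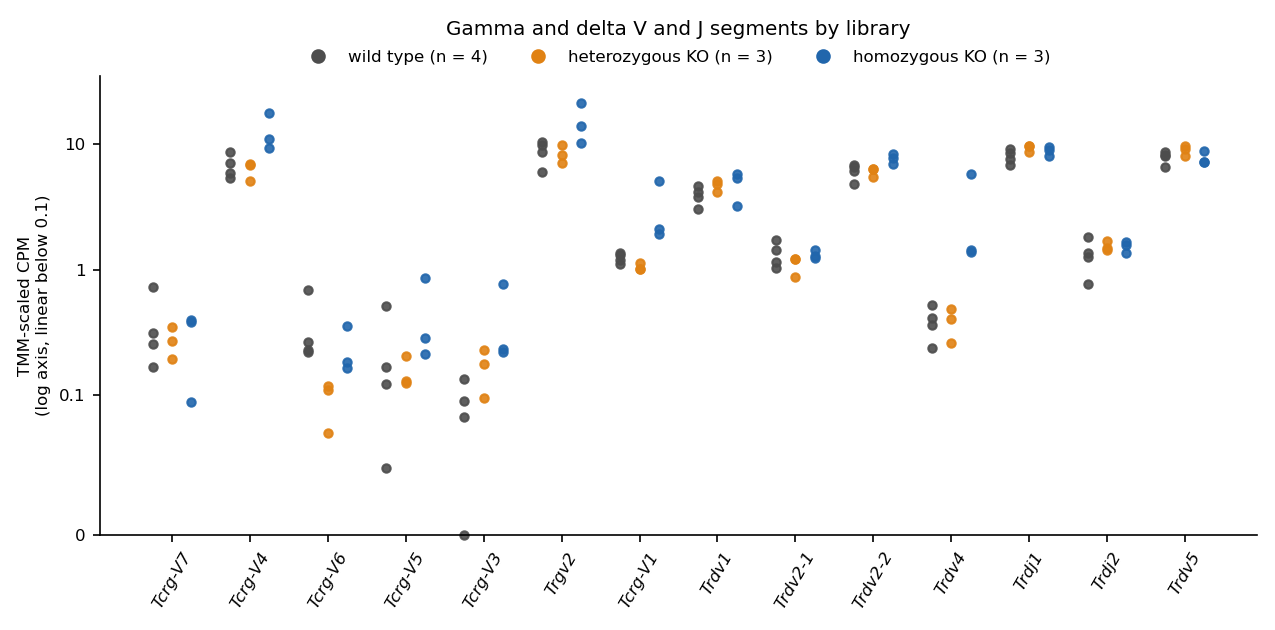
TMM-scaled CPM of the gamma and delta V and J segments per library, on an axis that is logarithmic above 0.1 and linear below it. Trdv4 shows the widest gap between homozygous KO (blue) and the other libraries, with homozygous KO library 1 at 5.87 CPM.

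Of the 7 delta segments, Trdv4 alone was called in homozygous KO (14.3%, beside 25.8% of all features). It stood at 5.87, 1.44 and 1.39 CPM in homozygous KO, at 0.490, 0.262 and 0.403 CPM in heterozygous KO and at 0.417, 0.241, 0.529 and 0.363 CPM in wild type. Each homozygous KO library was above every other, and library 1, which also had the highest Tcrg-V5, was the highest. The log2 fold change was 2.88 ± 0.52 (SE, adjusted p by edgeR = 0.00213) and was called under every alternative, but without homozygous KO library 1 it was 1.83 (adjusted p by edgeR = 0.00316, range over the alternatives up to 0.0365). The log2 difference was 3.93 within numbers 44 to 51 and 1.93 within numbers 56 to 63. Of the delta V counts Trdv4 took 21.8%, 6.46% and 5.69% in homozygous KO (exact 95% binomial interval of the last, 4.76% to 6.74%) and 1.17% to 3.29% in wild type (interval of the highest, 2.43% to 4.35%).

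None of the remaining delta segments was called. Trdv5, which lies in the opposite orientation, was at 8.81, 7.19 and 7.23 CPM in homozygous KO and 6.65 to 8.64 CPM in wild type (log2 fold change -0.03, adjusted p by edgeR = 0.903). Trdv2-2, at 7.80, 6.98 and 8.43 CPM, was above the wild types at 4.82 to 6.86 CPM without being called (0.35 ± 0.14, adjusted p by edgeR = 0.0945), and Trdv1 and Trdv2-1 overlapped wild type (adjusted p by edgeR = 0.348 and 0.997). The J segments Trdj1 and Trdj2 had log2 fold changes of 0.15 and 0.25 (adjusted p by edgeR = 0.384 and 0.509). Trdv2-1 and Trdv2-2 share 61.8% and 52.6% of their 50-base windows with each other.

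The genes that assemble and accompany the receptor were taken from fixed lists. Over all features, 25.8% were called in homozygous KO. Of 7 genes of the receptor chains and CD3, Trac, the alpha constant region gene, was the 1 called in homozygous KO: it fell from 136, 155, 170 and 154 CPM in wild type to 85.8, 121 and 106 CPM (log2 fold change -0.56 ± 0.11, adjusted p by edgeR = 0.00353), and the other 6 were not called. Of 15 genes of the V(D)J recombination machinery, 3 fell and 1 rose, a share near the 25.8% of all features called. Rag1, the catalytic subunit of the recombinase, fell by 0.85 on the log2 scale, Dntt, the enzyme that adds nucleotides at junctions, by 0.46, and the polymerase gene Poll by 1.21 (adjusted p by edgeR = 1.49e-05, 0.0286 and 0.0146). Hmgb2, a DNA-bending cofactor, rose by 0.68 (adjusted p by edgeR = 0.00156).

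Of a list of 18 gamma-delta lineage genes, 10 fell and 1 rose in homozygous KO, where 13.2% and 12.5% of all features did. The transcription factor genes Sox13 and Maf fell by 1.41 and 2.01 on the log2 scale. Il17a, the interleukin of gamma-delta cells that use Tcrg-V6, stood in wild type at 0.431 CPM ± 0.124 (SD, n = 4), in heterozygous KO at 0.126 to 0.131 CPM, and had no count in the 3 homozygous KO libraries, which allows up to 0.0245 to 0.0325 CPM. The list's median log2 fold change was -1.08, and its summed level was 893 to 950 CPM in homozygous KO and 864 to 1113 CPM in wild type. Several of its genes are also used by other cells, and Il7r stands in the mature single-positive list as well.

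Marker lists of the other cells of the thymus were read as well, where 12.5% of all features were called up and 13.2% down in homozygous KO. In homozygous KO, 7 of 8 mature single-positive markers fell (summed level 166 to 252 CPM, beside 335 to 494 CPM in wild type), 4 of 7 double-negative markers fell and 1 rose (199 to 718 beside 275 to 434 CPM), and of 8 double-positive markers 2 rose and 2 fell (8277 to 8686 beside 10039 to 11162 CPM, a sum that includes Rag1). In the B cell list 5 of 6 fell, while the summed level overlapped (294 to 335 beside 328 to 393 CPM in wild type). In the natural killer list 3 of 5 fell (2.83 to 5.05 beside 5.39 to 8.59 CPM in wild type). In the myeloid list 2 of 6 rose and 3 fell (53.2 to 196 beside 54.2 to 66.8 CPM in wild type). In the thymic epithelium list 1 of 6 rose and 1 fell, in the fibroblast and endothelium list 2 of 6 rose, and in the erythroid list 0 of 6 were called. The thymic epithelium, fibroblast and endothelium, and erythroid lists were near or below the 25.8% of all features called, so their counts are not results about those cells. In heterozygous KO none of these lists had a called gene, beside 0.0154% of all features. The part of these shifts in the values of the receptor segments was not tested.

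Genes inside and beside the 3 loci were also listed, beside 25.8% of all features called in homozygous KO. Of the neighbors of the gamma locus 0 of 4 were called in homozygous KO, and of those of the delta segments 1 of 6, Oxa1l, with 0.19 (adjusted p by edgeR = 0.0163). Of 5 tested genes inside or beside the beta locus, 2 were not called, Prss2, a trypsinogen gene within the locus, fell by 2.53 on the log2 scale, and Kel rose by 2.94, at 8.70, 2.95 and 0.188 CPM beside 0.221 to 0.698 CPM in wild type, so that library 3 was below the wild types. Sva, the gene of a seminal vesicle antigen, had no count in any of the 4 wild types and stood at 2.22, 3.22 and 2.80 CPM in homozygous KO and 4.11, 2.72 and 2.94 CPM in heterozygous KO. It was therefore at least 49.9-fold and 59.2-fold higher than the mean floor of 3 counts per wild-type library, and it was 1 of the 3 features called in heterozygous KO (adjusted p by edgeR = 0.000205). The part of a chromosome 6 difference between wild-type and KO libraries in the beta values was not tested.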

How the data were processed

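The authors deposited 1 table of raw read counts per gene for 10 thymus libraries, with no normalization. The submitters' processing notes name CASAVA, STAR 2.4.1d, HTSeq 0.6.1p1 and the mouse build NCBIM37/mm9. The strand setting and the handling of reads that match several places are not given in the sources used here. Reads across a V(D)J junction are not contiguous in the germline genome, and how many were kept is unknown. The J segments are 46 to 59 bases long. Columns were assigned to samples through the number shared by column name and sample title. For wild-type libraries 3 and 4 the column names, unlike the titles, hold a further word, het, and they were kept as wild type. These are the wild types with 1 wt word in their titles, and whether these words mark Cre induction is not stated.

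From these counts, TMM-scaled CPM were computed and tested with edgeR 4.0.16 in R 4.3.3: filterByExpr, then glmQLFit and glmQLFTest in 1 fit of all 10 libraries, with Benjamini-Hochberg adjustment over all 19511 features tested and a call at 0.05. The SE is the absolute log2 fold change over the square root of F. The script was tested on simulated data. Totals were 39.8 to 122 M counts per library, so 3 counts are 0.0245 to 0.0753 CPM. Log2 differences within the 2 ranges of library numbers used CPM + 0.01 for single genes. No pair of libraries of a group was a duplicate, with a chi-square per degree of freedom of 12.6 to 108 over 12 pairs. Shares are of raw counts, with Clopper-Pearson intervals at 95%. Symbols, annotation order and sequences came from GENCODE M21 (GRCm38), another build than that of the counts, so no coordinates are given. It matched 30204 of 34467 Ensembl identifiers, and 908 features had other names.

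The segments and gene lists were chosen with earlier results of these data known. Named were all constant region genes, the 6 segments of highest mean level per locus and class, and the 6 largest rises and falls per locus among called segments in homozygous KO against wild type and against heterozygous KO. Of each list, the called genes named are examples. Alternatives were DESeq2 size factors, library totals alone, DESeq2 1.42.0, no filter on low counts, the replicate number as a block, a term for the 2 ranges of library numbers, Xist as a covariate, the wild types with 1 or with 2 wt words as the only controls, and leaving out each library in turn.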

Additional observations from a re-analysis of the deposited data

Results flagged for a closer look

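In a group of 4 libraries a value was singled out when its gap to the nearest other, over the whole range, passed Dixon's critical value at 95%. Of 57 segments and sums tested in wild type, 2 were, where chance singles out about 1 in 20. Tcrg-V6 stood at 0.698 CPM in wild-type library 3 and at 0.221 to 0.265 CPM in the other wild types. Trbv10 stood at 0.0563 CPM in the same library and at 0.0241 to 0.0246 CPM in the others, which rests on a few counts per library.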

How the results depend on the processing

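Of 1178 values of single segments under the alternatives, 988 kept direction and side of the threshold, 166 lost a call, 24 gained one and 0 changed sign. Of 46 calls, 21 held under every alternative. Segments called in homozygous KO against wild type numbered 22, but 11 and 12 with only the wild types with 1 or 2 wt words as controls, and 17 to 26 when each library was left out. Against heterozygous KO there were 24, 14 with the wild types with 1 wt word, and 11 to 24 when each library was left out (14, 11 and 13 without heterozygous KO library 1, 2 or 3). In heterozygous KO against wild type there were 0 throughout. The log2 difference of the beta sum in homozygous KO was 0.27, 0.18 with library totals alone, 0.35 with the constant region genes only and 0.25 to 0.30 with each library left out, and that of the gamma sum was 0.47 to 1.13 and of the delta sum 0.18 to 0.34. In heterozygous KO they were -0.02 to 0.07, -0.35 to -0.06 and 0.07 to 0.21. A delta sum of constant region genes only could not be computed.

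Correlations between the deviations of same-numbered libraries were -0.14 to 0.30 over 9 pairs. The 3 over 0.1 were the pairs of libraries numbered 1 (0.21, 0.15 and 0.30), so these deviated together to a small degree. For numbers 2 and 3 no correlation passed 0.1. With the replicate number as a block, 20 segments were called in homozygous KO against wild type, 0 in heterozygous KO and 20 in homozygous against heterozygous KO. Over all features, 5030 were called in homozygous KO, 2670 with the wild types with 1 wt word as controls, and 3342 against heterozygous KO, 2153 without heterozygous KO library 3. In heterozygous KO 3 were called, 71 by DESeq2, 5 with the block and 6 without wild-type library 4. With library totals alone, 29.0% of the calls in homozygous KO were rises, against 48.6% (26.9% against 44.6% in homozygous against heterozygous KO), and the median log2 fold change was -0.11. Depth limits the sparsest segments, such as Tcrg-V3 and Trbv10.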
